A study of Homo sapiens with 4 samples.

Results

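NRF2, the transcription factor encoded by NFE2L2, its inhibitor KEAP1, reported NRF2 targets and the enzymes of antioxidant defence were followed in a human tumour cell line exposed to 2-D08, a synthetic flavone used to block sumoylation, the linking of SUMO to other proteins. The 44 genes were taken by symbol from a list of names, and 43 of them had a row in the count table of 19381 genes; SOD2 was not analysed here. Gene expression was measured by RNA sequencing of ribosome-depleted total RNA from SK-LMS-1, a leiomyosarcoma line that the labels class as uterine. The treated group was SK-LMS-1 exposed to 50 µM 2-D08 for 48 h (2 libraries), and its control was untreated SK-LMS-1 (2 libraries). All cells are from this line and were grown in MEM with fetal bovine serum, and the labels state no vehicle for the untreated cells. Whether the replicate libraries stem from separate cultures is not stated, and every p-value below therefore refers to the scatter of libraries, which may be technical.

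In the textbook account, KEAP1 holds NRF2 for ubiquitination by the CUL3 ligase and so for destruction by the proteasome. Oxidants and electrophiles modify KEAP1, NRF2 then accumulates, pairs with a small MAF protein and binds antioxidant response elements, DNA sites near its target genes, where the repressor BACH1 competes with it. The targets make and recycle glutathione and thioredoxin, supply NADPH to both systems, and reduce quinones, aldehydes and ketones. NRF2 itself is controlled mainly as a protein, which transcript counts do not measure.

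Library totals ran from 14796702 to 31300635 counts. In treated replicate 2 and untreated replicate 1, 87% and 87.9% of gene counts above 20 were even numbers, against 50.3% and 49.6% in treated replicate 1 and untreated replicate 2, so the totals of those libraries may not be totals of separate reads; the cause was not tested. Levels are given as CPM, a count relative to the library total scaled by edgeR's TMM factors. A gene passed when edgeR's quasi-likelihood test gave a Benjamini-Hochberg adjusted p under 0.05 over all genes tested. As markers of the labelled muscle lineage, 9 of 11 smooth muscle genes were tested, with 1 higher and 4 lower in treated cells; DES had 0 counts in all libraries and MYH11 lay at 0.664 and 0.778 CPM in treated and 0.472 and 0.726 CPM in untreated cells. Summed smooth muscle markers were 678 and 717 CPM in treated and 835 and 861 CPM in untreated cells. The summed epithelial list (2 lower and 0 higher of 5 tested, KRT5 at 0) was 261 and 218 CPM in treated and 321 and 286 CPM in untreated cells. The immune list (2 higher and 0 lower of 3 tested) was 98.8 and 100.2 CPM in treated and 62.6 and 67.4 CPM in untreated cells, and the endothelial list (1 higher and 0 lower of 2 tested) was 2.06 and 2.07 CPM in treated and 1.28 and 1.57 CPM in untreated cells. The endothelial gene called higher, PECAM1, had 18 and 40 counts in treated and 14 and 2 in untreated cells. PECAM1 passed the low-count filter only through the treated libraries, so its call is a description, and it was lost with DESeq2 and with limma on log2(TPM + 1). Of all genes tested, 17.1% were higher and 16.9% lower. The part of these markers in the results below was not tested, and in bulk RNA fewer cells of a kind and less RNA per cell cannot be told apart.

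Treated cells had more transcript of a few classical NRF2 targets, among them NQO1, OSGIN1, GCLM, SRXN1 and AKR1C1, and less of GPX1, GPX4 and CAT, while GPX3 and PRDX1, which also remove peroxides, were higher and NFE2L2 and KEAP1 did not pass the test. Of the 43 genes, 41 passed the filter on low counts and were tested, and 10 rose and 6 fell, against a background of 33.9% of all 12906 tested genes changed, 17.1% higher and 16.9% lower. The shares among the 41, 24.4% higher and 14.6% lower, are near that background, so the counts do not set these genes apart from other genes. AKR1C1 passed the filter only through the treated libraries, and without it 9 of 40 rose and 6 fell. The median log2 fold change was 0.00 over the 41 genes and 0.00 over all genes tested. The counts moved when a library was left out, and so did those of all genes. Without untreated replicate 1, 5 of these genes rose and 3 fell, against 7.34% and 7.09% of all genes tested. Without untreated replicate 2, 5 rose and 3 fell, against 9.81% and 10.1%. Without treated replicate 2, 15 rose and 5 fell, against 18.2% and 18.5%, and without treated replicate 1, 12 rose and 12 fell, against 21.8% and 23.4%. NQO1, OSGIN1, GCLM, SRXN1, GPX1, GPX4 and CAT kept their calls in all settings that tested them. With limma on log2(TPM + 1), GPX3, GSTM3, GSTO1, MGST1, TXNRD2, PRDX1 and PRDX5 lost theirs, and GSTM3, TXNRD2 and PRDX5 also lost theirs with DESeq2, with library size alone as scaling and with counts thinned to the smallest library.

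**Figure D1:**
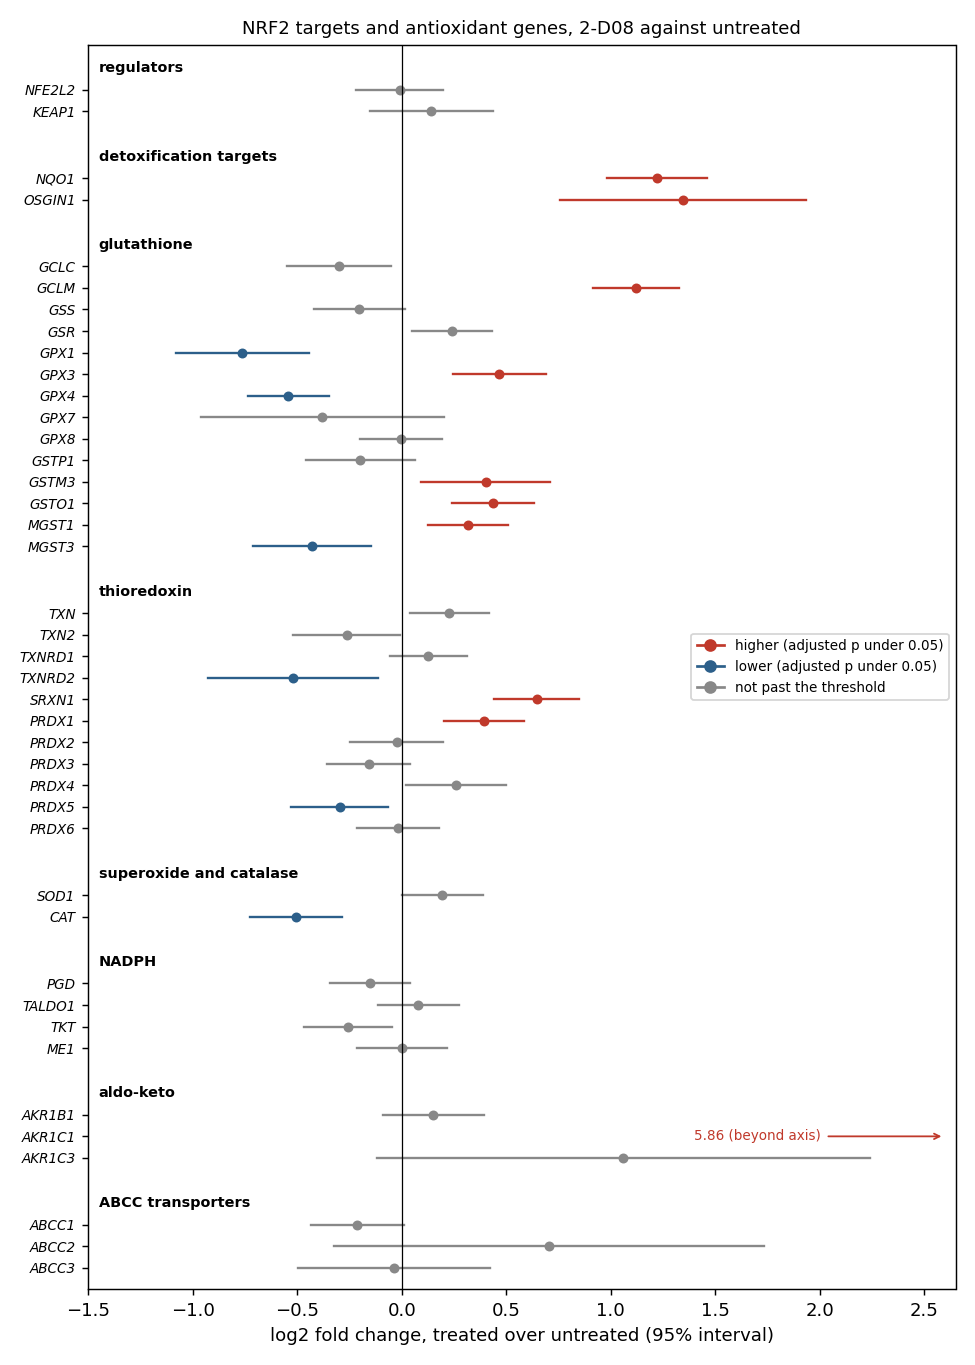
Log2 fold change of each tested gene, treated over untreated, with its 95% interval from edgeR's quasi-likelihood fit (2 libraries per group), by functional group; red and blue points passed the threshold. Of the genes past the threshold, OSGIN1, NQO1 and GCLM lie above 1 and GPX1 is lowest at -0.76, most genes lie within 0.5 of 0 on either side, and the fitted value of AKR1C1, which depends on its near-zero untreated counts, is beyond the axis.

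Levels between genes can be compared only per transcript length, for which the authors' deposited TPM values were used. On that scale PRDX1 had 731 and 638 TPM in treated cells and 553 and 545 TPM in untreated cells. TXN had 608 and 560.5 TPM in treated cells and 538 and 512 TPM in untreated cells. TXNRD1 had 506 and 555 TPM in treated cells and 519 and 515 TPM in untreated cells. PRDX1 lay above TXN without overlap in each group. TXN lay above TXNRD1 in treated cells, and the TPM ranges of TXN and TXNRD1 overlapped in untreated cells. At the low end the 3 AKR1C genes, AKR1B10, ABCC2 and OSGIN1 were under 5 TPM in every library.

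**Figure D2:**
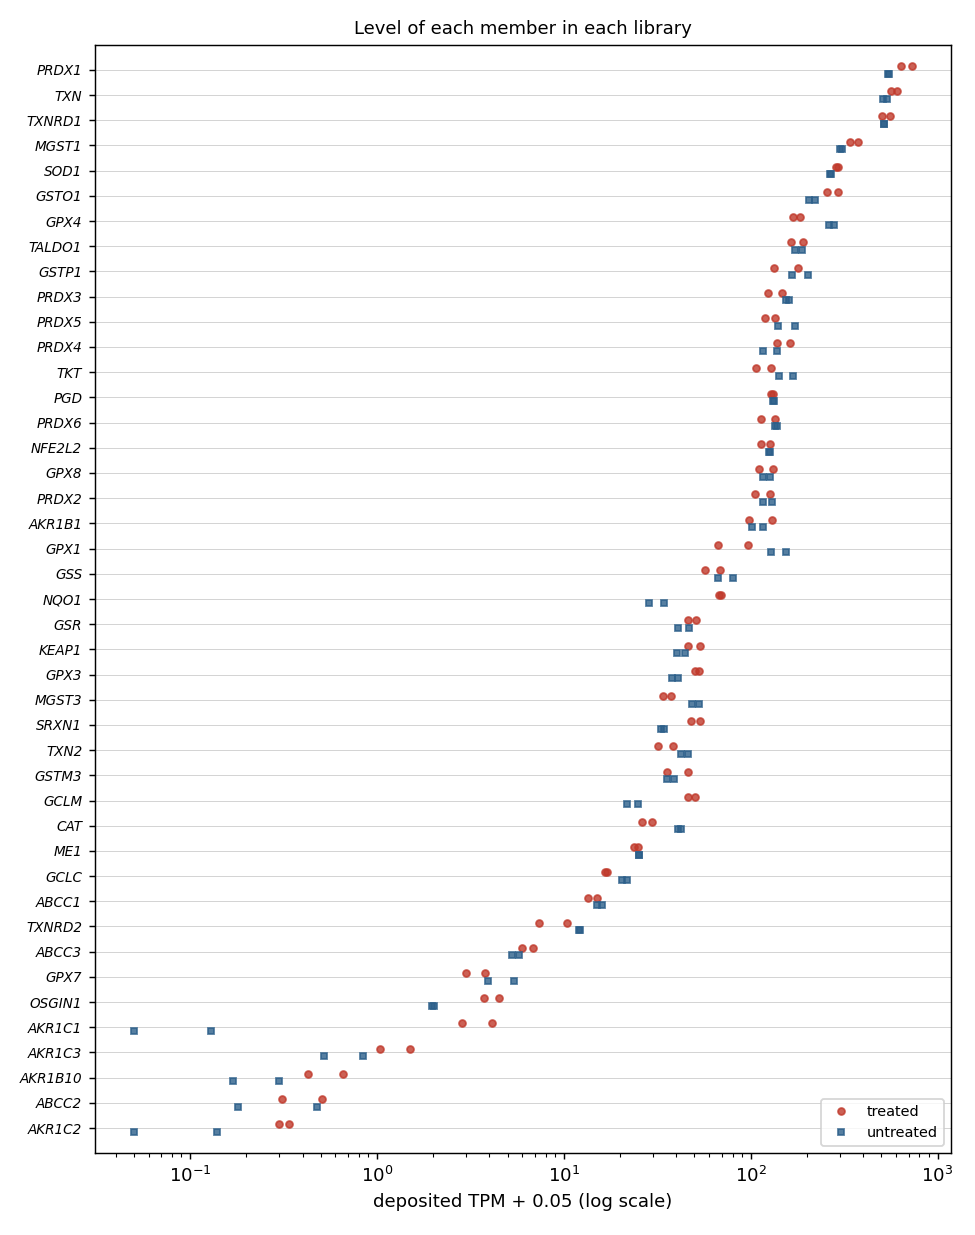
Deposited TPM plus 0.05 on a log axis for the 43 genes in each of the 4 libraries, ordered by their mean. PRDX1, TXN and TXNRD1 lie near the top in all libraries, and the treated points of NQO1, GCLM, OSGIN1 and AKR1C1 lie to the right of the untreated ones.

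The transcript of NRF2 itself differed between treated and untreated libraries by less than the spread within each group. NFE2L2 (chr2:177227595-177392697, GRCh38, minus strand) had 187 and 214 CPM in treated cells, against 194 and 211 CPM in untreated cells. The groups overlapped, and the log2 fold change was -0.01 with a 95% interval of -0.22 to 0.20 (edgeR adjusted p = 0.945). KEAP1, which encodes the substrate adaptor that holds NRF2, had 72.0 and 51.1 CPM in treated cells, against 57.6 and 53.0 CPM in untreated cells. The treated libraries lay on either side of the untreated ones (log2 fold change 0.14, interval -0.15 to 0.44, edgeR adjusted p = 0.453). Without treated replicate 2 the change of KEAP1 was 0.37 with an edgeR adjusted p of 0.00224, and without treated replicate 1 it was -0.12, so its direction rests on a single treated library.

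Of 10 partners and repressors of NRF2 read beside the list, 4 rose (40%), 2 fell (20%) and 4 did not pass. Of all genes tested, 17.1% were higher and 16.9% lower, and the difference from these shares was not tested. All 3 small MAF genes, whose proteins pair with NRF2 on DNA, rose. MAFF had 36.5 and 30.7 CPM in treated cells, against 12.3 and 12.5 CPM in untreated cells, a change of 1.44 ± 0.14 (log2, SE; edgeR adjusted p = 5.37e-06). MAFG had 66.9 and 59.5 CPM in treated cells, against 36.7 and 33.6 CPM in untreated cells (0.84 ± 0.11, edgeR adjusted p = 7.97e-05). MAFK had 66.4 and 48.0 CPM in treated cells, against 39.4 and 38.5 CPM in untreated cells (0.54 ± 0.14, edgeR adjusted p = 0.00743). In each of the 3 genes both treated libraries lay above both untreated libraries. BACH1, which encodes the repressor that competes for the same sites, fell and had 159 and 181 CPM in treated cells, against 227 and 223 CPM in untreated cells (-0.40 ± 0.09, edgeR adjusted p = 0.00526). SQSTM1, which encodes the autophagy receptor p62 that binds KEAP1, rose and had 406 and 342 CPM in treated cells, against 265 and 236 CPM in untreated cells (0.58 ± 0.10, edgeR adjusted p = 0.000803). RBX1, the RING subunit of the CUL3 ligase, was added after its values were seen. It had 23.0 and 20.2 CPM in treated cells, against 27.9 and 27.7 CPM in untreated cells (-0.37 ± 0.13, edgeR adjusted p = 0.0363), and its call was lost without treated replicate 2 (-0.28, edgeR adjusted p = 0.109), without untreated replicate 1 (-0.37, 0.263) and without untreated replicate 2 (-0.38, 0.187). CUL3, the scaffold of the ligase, had 188 and 217 CPM in treated cells, against 166 and 186 CPM in untreated cells and did not pass (0.21, edgeR adjusted p = 0.127), but passed without treated replicate 1 (0.31, edgeR adjusted p = 0.000517). BACH1 lost its call without untreated replicate 1 (-0.39, edgeR adjusted p = 0.112) and without untreated replicate 2 (-0.42, 0.0645), and with limma on log2(TPM + 1) the adjusted p-values of MAFK, BACH1 and SQSTM1 were 0.159, 0.0783 and 0.0617.

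**Figure D3:**
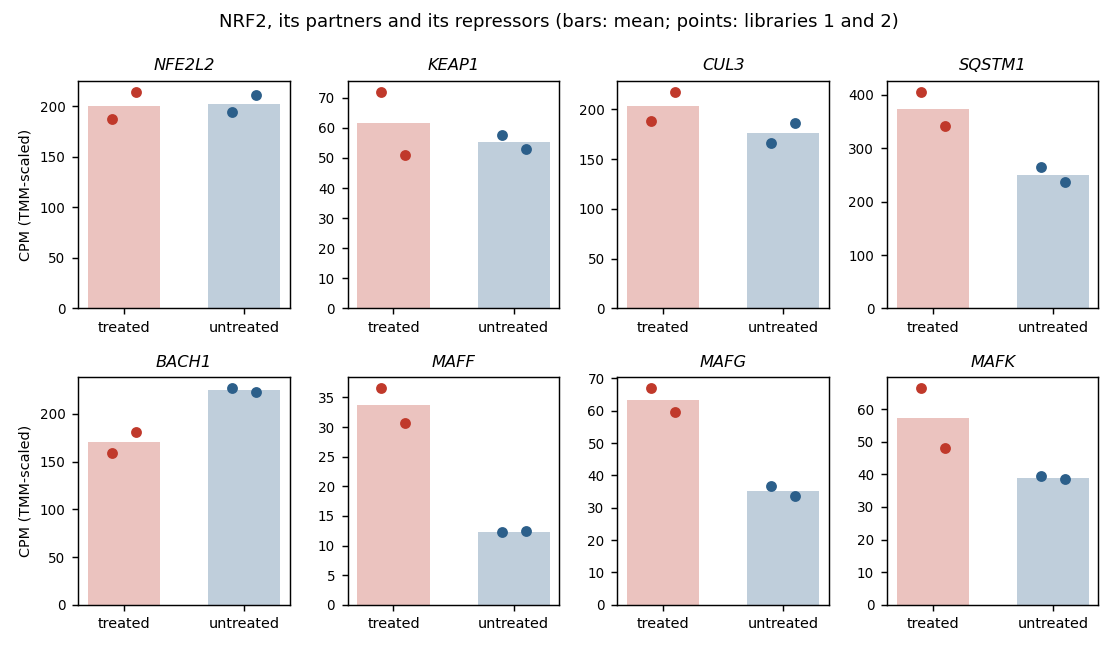
TMM-scaled CPM of NFE2L2, its partners and its repressors; points are the 2 libraries of each group and bars their mean. The points of NFE2L2 and KEAP1 overlap between groups, those of MAFF, MAFG, MAFK and SQSTM1 are higher and those of BACH1 lower in treated cells.

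Promoter sequence was read to see which members carry the core of an antioxidant response element close to their start. RefSeq windows (GRCh38.p14) from 250 bases before to 50 bases from the start on were available for 34 of the 43 genes, 46 windows in all since some genes have several starts. The core searched was TGACNNNGC on both strands. It can overlap the AP-1 site, searched as TGASTCA, where S is C or G. It was found in 9 of the 46 windows (19.6%), against 14.3% of the 15568 windows of all tested genes and 13.3% of all 35116 windows. By gene, 3 of 9 genes that rose, 0 of 6 that fell and 5 of 18 that did not pass had a window with the core, against 19.3% of 10593 tested genes with a window. The 9 include AKR1C1, which passed the low-count filter only through the treated libraries and has no core in its window. A match is only a match of letters, and distant elements lie outside these windows.

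The upstream 250 bases are shown for 5 genes chosen as examples, so they give no rate. GCLM and GSTO1 rose and hold the core. NQO1 rose and does not hold it, and TXNRD1 and GSTP1 hold it and did not pass the test. MGST1, which also rose, holds a core 30 to 38 bases after a start, outside the stretch shown for the others. Capitals mark the core, which reads as its reverse complement where it lies on the other strand. The core of GSTP1 overlaps an AP-1 site, as does a core of ME1, so 2 of 46 windows (4.35%) hold such an overlap, against 0.561% of all windows. TXNRD1 has windows at 2 starts, both with a core, and the downstream one is shown.
GCLM, chr1:93909431-93909680, minus strand: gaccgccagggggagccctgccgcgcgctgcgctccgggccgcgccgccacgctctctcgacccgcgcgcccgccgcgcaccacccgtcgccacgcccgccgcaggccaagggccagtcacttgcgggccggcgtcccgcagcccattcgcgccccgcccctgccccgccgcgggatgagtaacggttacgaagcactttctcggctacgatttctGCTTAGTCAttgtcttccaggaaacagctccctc
GSTO1, chr10:104254642-104254891, plus strand: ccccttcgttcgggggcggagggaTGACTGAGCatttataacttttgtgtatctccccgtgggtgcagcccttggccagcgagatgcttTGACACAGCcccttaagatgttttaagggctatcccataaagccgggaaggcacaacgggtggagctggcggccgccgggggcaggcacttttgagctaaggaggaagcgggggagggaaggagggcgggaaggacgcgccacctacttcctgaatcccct
NQO1, chr16:69726561-69726810, minus strand: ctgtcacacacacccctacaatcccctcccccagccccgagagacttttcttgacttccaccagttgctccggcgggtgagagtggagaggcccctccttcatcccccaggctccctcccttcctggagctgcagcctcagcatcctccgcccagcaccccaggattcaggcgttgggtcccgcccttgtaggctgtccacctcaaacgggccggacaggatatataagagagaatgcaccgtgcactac
TXNRD1, chr12:104286782-104287031, plus strand: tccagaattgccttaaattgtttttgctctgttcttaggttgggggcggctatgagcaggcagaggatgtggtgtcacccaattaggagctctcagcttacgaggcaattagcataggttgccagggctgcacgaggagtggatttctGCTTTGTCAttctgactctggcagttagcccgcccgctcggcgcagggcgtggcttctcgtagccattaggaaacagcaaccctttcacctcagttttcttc
GSTP1, chr11:67583562-67583811, plus strand: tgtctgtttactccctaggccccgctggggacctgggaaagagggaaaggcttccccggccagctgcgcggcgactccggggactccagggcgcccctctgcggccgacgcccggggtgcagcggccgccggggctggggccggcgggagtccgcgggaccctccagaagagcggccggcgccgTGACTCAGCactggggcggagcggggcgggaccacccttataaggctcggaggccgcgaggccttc

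NQO1 and OSGIN1, reported as direct NRF2 targets, both rose by more than 1 on the log2 scale. NQO1 (chr16:69706996-69726951, minus strand), the quinone reductase whose transcript is widely used as a readout of NRF2, had 57.1 and 55.8 CPM in treated cells, against 23.2 and 25.3 CPM in untreated cells. The treated libraries were close together and lay 2.33-fold above the untreated ones in the fit (log2 fold change 1.22 ± 0.11 SE, edgeR adjusted p = 3.28e-06). An antisense transcript overlaps 15.5% of the 75-base words of the NQO1 transcript, and the strand setting of the authors' counting is not given, so reads from the 2 strands there cannot be told apart. OSGIN1 (chr16:83948282-83966332, plus strand), a stress-induced growth inhibitor gene, had 3.85 and 4.60 CPM in treated cells, against 1.75 and 1.57 CPM in untreated cells (1.35 ± 0.27, edgeR adjusted p = 0.00199). Its groups did not overlap, at a low level.

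**Figure D4:**
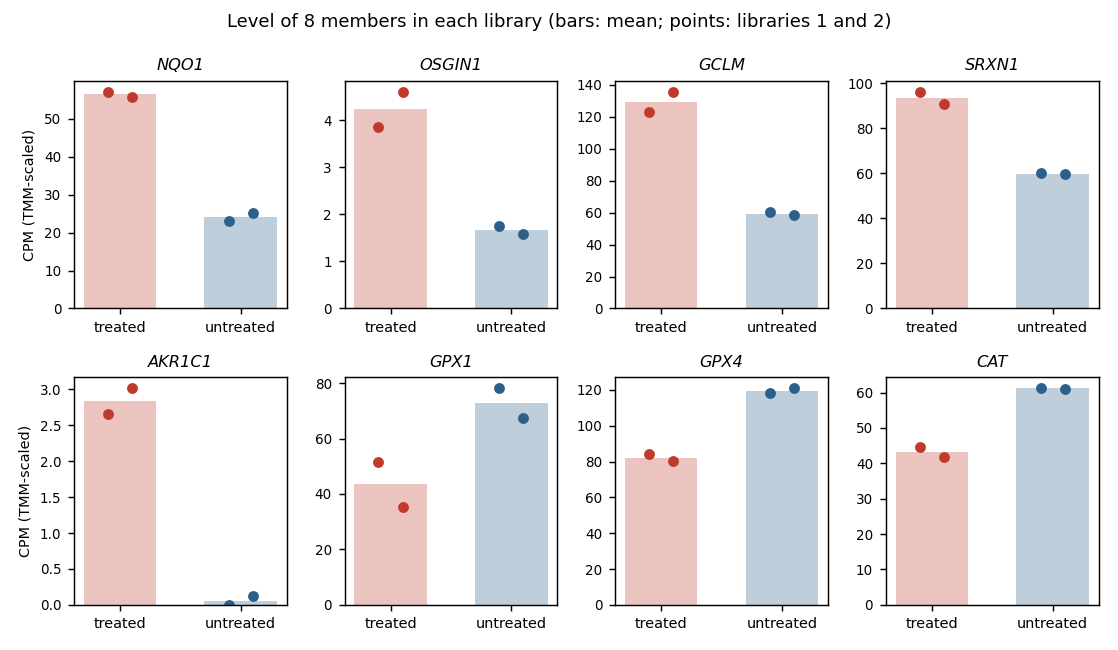
TMM-scaled CPM of NQO1, OSGIN1, GCLM, SRXN1, GPX1, GPX4 and CAT, which passed the threshold in every setting that tested them, and of AKR1C1, which passed the low-count filter only through the treated libraries; points are the 2 libraries of each group and bars their mean. NQO1, OSGIN1, GCLM, SRXN1 and AKR1C1 are higher and GPX1, GPX4 and CAT lower in treated cells, with no overlap between groups.

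Of 14 glutathione genes, 5 rose, 3 fell and 6 did not pass, with a median log2 fold change of -0.10. These shares, 35.7% higher and 21.4% lower, stand beside 17.1% and 16.9% of all genes tested. In synthesis, the subunits of the rate-limiting glutamate-cysteine ligase lay in opposite directions, a difference that was not tested. GCLM (chr1:93885205-93909456, minus strand), its modifier subunit, had 123 and 136 CPM in treated cells, against 60.1 and 58.7 CPM in untreated cells, a change of 1.12 ± 0.10 (log2, SE; edgeR adjusted p = 1.69e-06). The GCLM libraries of the groups did not overlap. GCLC, its catalytic subunit, had 27.4 and 29.5 CPM in treated cells, against 34.6 and 35.7 CPM in untreated cells. Both treated values of GCLC lay below both untreated values, but the gene did not pass (-0.30, interval -0.55 to -0.05, edgeR adjusted p = 0.0591). GSS, glutathione synthetase, had 83.3 and 72.9 CPM in treated cells, against 94.2 and 84.8 CPM in untreated cells, and GSR, which recycles oxidised glutathione with NADPH, had 106 and 106 CPM in treated cells, against 90.7 and 88.8 CPM in untreated cells. Neither passed (edgeR adjusted p = 0.142 and 0.052), although their groups did not overlap. Without treated replicate 2, GCLC (edgeR adjusted p = 0.022) and GSR (0.0307) passed, and without treated replicate 1 GSS (0.00403) and GSR (0.0207) did. GSR also passed with library size alone as scaling (0.0417), with the mostly even libraries halved (0.0486) and with thinned counts (0.0318).

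Among the glutathione peroxidases, GPX1 and GPX4 fell and GPX3 rose. GPX1 (chr3:49357171-49358600, minus strand), the cytosolic enzyme that reduces hydrogen peroxide, had 51.7 and 35.3 CPM in treated cells, against 78.1 and 67.4 CPM in untreated cells. That is 1.70-fold lower (log2 fold change -0.76 ± 0.15, edgeR adjusted p = 0.00144), with the treated libraries further apart than the untreated ones. GPX4 (chr19:1103926-1106791, plus strand), which reduces lipid hydroperoxides in membranes and is known as a guard against ferroptosis, had 84.0 and 80.3 CPM in treated cells, against 118 and 121 CPM in untreated cells (-0.54 ± 0.09, edgeR adjusted p = 0.000495). GPX3, the secreted enzyme, had 54.8 and 54.1 CPM in treated cells, against 39.6 and 39.1 CPM in untreated cells (0.47 ± 0.10, edgeR adjusted p = 0.00342). GPX7 and GPX8, which act in the endoplasmic reticulum, overlapped between groups. GPX7 had 2.33 and 3.11 CPM in treated cells, against 4.05 and 3.09 CPM in untreated cells, and GPX8 had 143 and 152 CPM in treated cells, against 142 and 153 CPM in untreated cells. Neither passed (log2 fold changes -0.38 with an interval of -0.96 to 0.20 and 0.00 with -0.20 to 0.19, edgeR adjusted p = 0.3 and 0.981). A processed pseudogene shares 12.7% of the 75-base words of GPX1, so a small part of its reads is uncertain.

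Glutathione transferases, which conjugate glutathione to electrophiles, differed in direction. GSTO1 had 140.3 and 129 CPM in treated cells, against 101 and 97.7 CPM in untreated cells and rose (0.44 ± 0.09, edgeR adjusted p = 0.00247). MGST1, a membrane-bound family member, had 199 and 192 CPM in treated cells, against 155 and 159 CPM in untreated cells and rose (0.32 ± 0.09, edgeR adjusted p = 0.0139). GSTM3 had 24.6 and 20.9 CPM in treated cells, against 16.2 and 18.1 CPM in untreated cells, a rise of 0.40 close to the threshold (edgeR adjusted p = 0.044). MGST3 had 17.7 and 17.2 CPM in treated cells, against 23.7 and 23.2 CPM in untreated cells and fell (-0.43 ± 0.13, edgeR adjusted p = 0.0217). GSTP1, the pi-class enzyme often abundant in tumour cells, had 74.0 and 58.2 CPM in treated cells, against 81.2 and 69.4 CPM in untreated cells. Its groups overlapped and it did not pass (-0.20, edgeR adjusted p = 0.227), but it did without treated replicate 1 (-0.38, edgeR adjusted p = 0.000562). GPX3, GSTO1, MGST1, GSTM3 and MGST3 lost their calls without untreated replicate 1 and without untreated replicate 2, with log2 fold changes that kept their sign. In that order of libraries left out, GPX3 was at 0.48 and 0.46 (edgeR adjusted p = 0.0648 and 0.0616). GSTO1 was at 0.46 and 0.41 (edgeR adjusted p = 0.0509 and 0.0718). MGST1 was at 0.30 and 0.33 (edgeR adjusted p = 0.263 and 0.17). GSTM3 was at 0.32 and 0.48 (edgeR adjusted p = 0.382 and 0.111). MGST3 was at -0.42 and -0.45 (edgeR adjusted p = 0.226 and 0.13). GSTM3 also lost it without treated replicate 1 (0.29, edgeR adjusted p = 0.102), and on the TPM scale it was 0.12.

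Of 11 thioredoxin genes, 2 rose, 2 fell and 7 did not pass, with a median of -0.02. The share of 18.2% in each direction is near the 17.1% higher and 16.9% lower of all genes tested. The genes that rose were SRXN1 and PRDX1, and those that fell were TXNRD2 and PRDX5. SRXN1 (chr20:646615-653370, minus strand), sulfiredoxin, which restores overoxidised peroxiredoxins, had 96.1 and 90.9 CPM in treated cells, against 59.9 and 59.5 CPM in untreated cells (0.65 ± 0.09, edgeR adjusted p = 0.000182). A second annotated protein-coding gene on the same strand shares 84.6% of its 75-base words, so the counts of SRXN1 depend on how reads shared between genes were handled, which is not given. PRDX1 (chr1:45511036-45523047, minus strand), an abundant cytosolic peroxiredoxin, had 424 and 391 CPM in treated cells, against 306 and 315 CPM in untreated cells (0.39 ± 0.09, edgeR adjusted p = 0.00403). Its exons overlap MMACHC on the opposite strand, which had 18.8 and 21.1 CPM in treated cells, against 21.3 and 22.3 CPM in untreated cells and did not pass (-0.12, edgeR adjusted p = 0.517).

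Thioredoxin and its cytosolic reductase were among the most abundant transcripts of the list and did not pass. TXN, thioredoxin, had 250.1 and 244 CPM in treated cells, against 211 and 211 CPM in untreated cells (0.23, interval 0.04 to 0.42, edgeR adjusted p = 0.059), and passed without treated replicate 1 (0.0225) or 2 (0.0108). TXNRD1, the cytosolic thioredoxin reductase, had 1249 and 1339 CPM in treated cells, against 1168 and 1200.0 CPM in untreated cells (0.13, interval -0.06 to 0.31, edgeR adjusted p = 0.271). In both genes the treated libraries lay above the untreated ones without overlap. TXNRD2, the mitochondrial reductase, had 11.8 and 8.10 CPM in treated cells, against 14.0 and 13.9 CPM in untreated cells and fell (-0.52 ± 0.19, edgeR adjusted p = 0.0477). TXN2, mitochondrial thioredoxin, had 32.8 and 28.6 CPM in treated cells, against 35.5 and 38.0 CPM in untreated cells (-0.26, edgeR adjusted p = 0.104), and PRDX3, the mitochondrial peroxiredoxin, had 153 and 137 CPM in treated cells, against 162 and 161 CPM in untreated cells (-0.16, edgeR adjusted p = 0.207). PRDX5, found in mitochondria, peroxisomes and cytosol, had 63.7 and 58.5 CPM in treated cells, against 81.2 and 68.4 CPM in untreated cells and fell (-0.30 ± 0.11, edgeR adjusted p = 0.0472).

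PRDX4, the peroxiredoxin of the secretory pathway, had 90.8 and 77.3 CPM in treated cells, against 75.5 and 64.2 CPM in untreated cells (0.26, edgeR adjusted p = 0.0869), higher in both treated libraries but not past the threshold. PRDX2 had 70.6 and 61.8 CPM in treated cells, against 69.4 and 64.7 CPM in untreated cells, and PRDX6, which also has phospholipase activity, had 127 and 118 CPM in treated cells, against 120.1 and 128 CPM in untreated cells. These last 2 genes overlapped between groups (log2 fold changes of -0.02 and -0.02, edgeR adjusted p = 0.88 and 0.903). The calls of PRDX1, TXNRD2 and PRDX5 were also lost without untreated replicate 1 and without untreated replicate 2. In that order, PRDX1 was at 0.37 and 0.41 (edgeR adjusted p = 0.141 and 0.0822). TXNRD2 was at -0.51 and -0.52 (edgeR adjusted p = 0.209 and 0.133). PRDX5 was at -0.16 and -0.42 (edgeR adjusted p = 0.594 and 0.0674). The calls of TXNRD2 (-0.25, edgeR adjusted p = 0.292) and PRDX5 (0.0504) were also lost without treated replicate 2 and when the libraries with mostly even counts were halved (0.0572 and 0.0532). Without treated replicate 1, TXN2 (edgeR adjusted p = 0.00868) and PRDX3 (0.00973) fell, and without treated replicate 2 PRDX4 rose (0.000959).

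CAT (chr11:34438925-34472062, plus strand), the peroxisomal catalase that breaks down hydrogen peroxide, fell. It had 44.5 and 41.8 CPM in treated cells, against 61.2 and 61.1 CPM in untreated cells, 1.42-fold lower (log2 fold change -0.51 ± 0.10, edgeR adjusted p = 0.00186). SOD1, the cytosolic superoxide dismutase, had 158 and 164 CPM in treated cells, against 137 and 145 CPM in untreated cells. Both treated libraries of SOD1 lay above the untreated ones, but it did not pass (0.19, edgeR adjusted p = 0.114). It passed with a replicate block added to the fit (0.19, edgeR adjusted p = 0.0268) and without treated replicate 1, at 0.22.

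All 4 NADPH genes were tested and none passed, with log2 fold changes between -0.26 and 0.08. Of all genes tested, 33.9% passed. PGD, the second NADPH-producing step of the pentose phosphate pathway, had 151 and 153 CPM in treated cells, against 172 and 166 CPM in untreated cells (-0.15, interval -0.34 to 0.04, edgeR adjusted p = 0.202). TKT, transketolase of the same pathway's non-oxidative branch, had 166 and 149 CPM in treated cells, against 199 and 176 CPM in untreated cells (-0.26, interval -0.47 to -0.05, edgeR adjusted p = 0.0586). Both genes were lower in treated libraries without overlap. TALDO1, transaldolase, had 142 and 132 CPM in treated cells, against 132 and 127 CPM in untreated cells (0.08, interval -0.12 to 0.27, edgeR adjusted p = 0.529). ME1, the cytosolic malic enzyme, had 57.5 and 63.3 CPM in treated cells, against 59.5 and 61.4 CPM in untreated cells (0.00, interval -0.21 to 0.22, edgeR adjusted p = 0.991). TKT passed without treated replicate 1 (-0.34, edgeR adjusted p = 0.000167) and with no low-count filter (0.0436).

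In the aldo-keto reductase group, AKR1C1 stood at 0 or near it in untreated cells and was detected in treated cells. AKR1C1 (chr10:4963253-4983283, plus strand), which reduces ketosteroids and reactive aldehydes, had 40 and 93 counts in treated cells and 0 and 2 counts in untreated cells. It passed the low-count filter only through the treated libraries, so its levels are given as a description. In CPM that is 2.66 and 3.01 in treated and 0 and 0.121 in untreated cells. The ratio of summed counts per library size was 66.9, with an exact 95% interval of 18.2 to 558 that covers counting error only. With the mostly even libraries halved it was 44.8 (12.0 to 375). The ratio rests on the 2 counts of untreated replicate 2: without untreated replicate 1 it was 23.9 (6.50 to 199.7). Without untreated replicate 2, where 0 counts are left, no ratio can be formed. The exact 95% lower bound of the AKR1C1 ratio was then 23.0, for counting error only. Setting the untreated count at an assumed floor of 3 counts gave 28.7-fold, which takes no account of counting error.

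The other AKR1C genes had few counts. AKR1C2 had 2 and 9 counts in treated and 0 and 2 in untreated cells, too few to be tested (ratio 5.53, exact 95% interval 1.21 to 51.4). AKR1C3 had 9 and 36 counts in treated and 10 and 10 in untreated cells and did not pass (1.06, edgeR adjusted p = 0.152). The AKR1C1 transcript shares 21.9% of its 75-base words with AKR1C2 and 1.04% with AKR1C3, so the split of reads between AKR1C1 and AKR1C2 is uncertain. Summed over the 3 genes, counts were 51 and 138 in treated cells and 10 and 14 in untreated cells, a ratio of 7.92 (exact 95% interval 5.17 to 12.7). AKR1B10, another aldo-keto reductase often listed as an NRF2 target in human cells, had 5 and 8 counts in treated and 8 and 1 in untreated cells and was not tested (ratio 1.45, exact 95% interval 0.575 to 3.85). AKR1B1, aldose reductase, was well expressed, with 111 and 87.7 CPM in treated cells, against 93.3 and 84.3 CPM in untreated cells. It overlapped between groups (0.15, interval -0.09 to 0.40, edgeR adjusted p = 0.321) and passed only without treated replicate 2 among the fits that left out a library (0.31, edgeR adjusted p = 0.00315).

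The 3 ABCC transporters, which export glutathione conjugates, did not pass, where 33.9% of all genes tested did. ABCC1 had 52.4 and 48.8 CPM in treated cells, against 60.7 and 56.3 CPM in untreated cells (-0.21, edgeR adjusted p = 0.128), lower in treated libraries without overlap, and passed without treated replicate 1 (-0.27, edgeR adjusted p = 0.0287). ABCC3 had 9.90 and 6.61 CPM in treated cells, against 8.83 and 7.69 CPM in untreated cells, which overlapped (-0.04, edgeR adjusted p = 0.909). ABCC2 was barely detected, with 0.864 and 0.972 CPM in treated cells, against 0.539 and 0.605 CPM in untreated cells (0.71, edgeR adjusted p = 0.274).

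Of 67 further genes of the pathway that are outside the list of 44, 59 were tested, 11 rose and 14 fell, shares of 18.6% and 23.7% against 17.1% and 16.9% of all genes. Their median log2 fold change was -0.06. Among 10 partners and repressors of NRF2, 4 rose and 2 fell. Among 17 tested NRF2 targets of this second list 3 rose and 3 fell, among 14 glutathione genes 4 rose and 2 fell, and among 10 thioredoxin and methionine sulfoxide genes 0 rose and 2 fell. None of 6 NADPH genes rose and 3 fell, and of 2 tested aldo-keto genes both fell. Besides the MAF genes, the largest rises were those of GGCT, γ-glutamylcyclotransferase of glutathione turnover, with 152 and 176 CPM in treated cells, against 86.3 and 97.5 CPM in untreated cells (0.84 ± 0.10, edgeR adjusted p = 4.57e-05), and PIR, pirin, with 4.85 and 3.11 CPM in treated cells, against 2.16 and 2.24 CPM in untreated cells (0.82 ± 0.29, edgeR adjusted p = 0.0433). PIR lost its call without treated replicate 1 (0.50, edgeR adjusted p = 0.225), without untreated replicate 1 (0.80, 0.178) and without untreated replicate 2 (0.85, 0.106).

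The largest falls in that second list were those of TXNRD3, SESN3, GSTZ1 and SLC7A11. TXNRD3, the third thioredoxin reductase, had 5.51 and 6.48 CPM in treated cells, against 14.6 and 13.7 CPM in untreated cells (-1.23 ± 0.18, edgeR adjusted p = 0.000168). SESN3, a sestrin, had 16.3 and 14.5 CPM in treated cells, against 28.9 and 30.7 CPM in untreated cells (-0.96 ± 0.13, edgeR adjusted p = 0.000124). GSTZ1, the zeta-class transferase of tyrosine breakdown, had 11.7 and 8.10 CPM in treated cells, against 16.8 and 17.6 CPM in untreated cells (-0.82 ± 0.18, edgeR adjusted p = 0.00362). SLC7A11, the cystine importer that feeds glutathione synthesis and is also a target of ATF4, had 177 and 220.4 CPM in treated cells, against 319 and 348 CPM in untreated cells (-0.74 ± 0.11, edgeR adjusted p = 0.000177). In all 4 genes the groups did not overlap. On the TPM scale GSTZ1 lost its call (limma adjusted p = 0.0551). HMOX1, heme oxygenase 1, was singled out after its values were seen because it is a widely used NRF2 target. It had 9.30 and 8.95 CPM in treated cells, against 6.47 and 7.02 CPM in untreated cells, without overlap, and did not pass (0.44, interval 0.04 to 0.83, edgeR adjusted p = 0.0801). The other called targets of that list were also added after their values were seen. The ferritin genes FTH1 (0.61, edgeR adjusted p = 0.00016) and FTL (0.53, 0.0018) rose, and IDH1 (-0.40, 0.00483) and ABCC4 (-0.43, 0.0125) fell. Of these, FTH1 alone kept its call in every alternative.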

How the data were processed

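RNA-seq was read from 2 treated and 2 untreated SK-LMS-1 libraries. The tools listed per the submitters' processing notes are STAR 2.7.8a, cutadapt 3.4 and DESeq2, with build GRCh38. How reads were assigned to genes (tool, strand, shared reads) is not given in the sources used here. Deposited by the authors were raw read counts per gene and TPM values; another deposited table, of transformed values, was not used. No per-sample column lacked a sample.

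Counts were filtered with filterByExpr (minimum count 10), scaled by TMM and tested with edgeR 4.0.16 (R 4.3.3) by the robust quasi-likelihood test, two-sided, with Benjamini-Hochberg adjustment over all 12906 genes at 0.05. Standard errors were derived from the F statistic. The test was checked on simulated data with the same dispersion for every gene. It recovered 61.2% of 1.5-fold, 97% of 2-fold and 100% of 4-fold changes, and 3.37% of its calls were false. Changes under 1.5-fold were not simulated, so a gene that did not pass may still have changed. CPM is TMM-scaled. Intervals of count ratios are exact (Clopper-Pearson) and cover counting error only, and the even counts make separate reads uncertain.

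Alternatives were RLE factors, library size only, other filters, DESeq2 1.42.0, limma 3.58.1 on log2(TPM + 1) and log2(TPM + 0.1), a replicate block, halved even-count libraries, thinned counts and leaving out each library. Positions and 75-base words come from GENCODE release 29, promoters from RefSeq. Every member is named. Of the second list, the genes named were MAFF, MAFG, MAFK, BACH1, CUL3, SQSTM1 and the 4 largest called changes each way with a mean of at least 1 CPM. RBX1, HMOX1, FTH1, FTL, IDH1 and ABCC4 were added after their values were seen. Members and lists were chosen with earlier results of these data known. Replicates differed by more than sampling noise (chi-square per degree of freedom 13.2 in treated and 4.55 in untreated cells).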

Additional observations from a re-analysis of the deposited data

How the results depend on the processing

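No member called changed turned sign in any of the 14 alternatives, and 7 of the 15 member calls other than AKR1C1 held in every alternative that tested the gene. On the TPM scale (limma, pseudocounts 1 and 0.1), 702 and 714 of all genes rose and 896 and 894 fell. In each, 5 members rose, and 5 of the second list rose and 5 fell. The cause was not tested. The deposited TPM values summed to 741705 and 716934 in treated and 761770 and 745964 in untreated libraries. They were not rescaled before these fits, and the part of this in the TPM-scale results was not tested. Leaving out each library, which assumes the lone library varies like the other group, gave 949 to 2931 genes higher and 917 to 3146 lower, 5 to 15 members higher and 3 to 12 lower, and 7 to 14 genes of the second list higher and 5 to 18 lower. The labels give no reason to pair libraries by replicate number. The correlation between deviations of equally numbered libraries was 0.212 (12906 genes); adding a replicate block gave 14 members higher and 12 lower, with 3138 and 3101 of all genes. RLE factors, the filters and the block lost no member call, library size only, DESeq2 and thinned counts 3 each, halved libraries 2 and each TPM scale 7. Signs turned only in members not called: GPX8 with library size only (0.0011), PRDX6 and ABCC3 with thinned counts (0.0208 and 0.008), ABCC3 with halved libraries (0.0027), TALDO1 on the TPM scales (-0.0321 and -0.0323), ABCC3 there (0.18 and 0.21), and ME1 with no filter (-0.007), with at least 5 CPM (-0.005), on the TPM scales (-0.0578 and -0.0599), with the block (-0.0027) and with thinned counts (-0.0439). Over the fits without a library, values ran from -0.116 to 0.0804 for NFE2L2, -0.1215 to 0.3704 for KEAP1, -0.0569 to 0.0469 for GPX8, -0.1226 to 0.0654 for PRDX2, -0.0699 to 0.0315 for PRDX6, -0.0775 to 0.0648 for ME1, -0.0263 to 0.309 for AKR1B1 and -0.3354 to 0.2439 for ABCC3 in the members that turned sign there. Genes below about 1 CPM (AKR1B10, AKR1C2, AKR1C3, ABCC2) are limited by depth.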

Other observations

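GPX1, GPX3, GPX4, TXNRD1, TXNRD2 and TXNRD3 are selenoproteins, enzymes with selenocysteine, and their calls differed in direction, with TXNRD1 not called. A list of the 25 human selenoprotein genes was read after these values had been seen, as a description with no test of the list. Of 19 tested genes 4 were higher and 7 lower in treated cells, against 17.1% and 16.9% of all genes, with a median log2 fold change of -0.06. SELENOI, which makes phosphatidylethanolamine, had 188 and 215 CPM in treated cells, against 120.5 and 128 CPM in untreated cells (edgeR adjusted p = 0.000123). SELENOS and SELENOK, which act in the degradation of proteins from the endoplasmic reticulum, were higher, with 0.49 and 0.50 on the log2 scale. SELENOS lost its call without untreated replicate 2 (0.46, edgeR adjusted p = 0.0579), and SELENOK did so there (0.48, 0.0611) and without untreated replicate 1 (0.52, 0.0571). DIO2, a deiodinase that activates thyroid hormone, had 6.78 and 10.1 CPM in treated cells, against 19.6 and 19.2 CPM in untreated cells (edgeR adjusted p = 0.000326). SELENOH and SELENON were lower, with -0.55 and -0.40 on the log2 scale. SELENOH lost its call without untreated replicate 2 (-0.51, edgeR adjusted p = 0.0561) and SELENON without untreated replicate 1 (-0.36, 0.133), and on the log2(TPM + 1) scale limma gave adjusted p-values of 0.0828 and 0.0727. SEPHS2, which makes the selenium donor, had 47.8 and 46.9 CPM in treated cells, against 38.9 and 39.4 CPM in untreated cells and did not pass (edgeR adjusted p = 0.0578).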
